A study of Mus musculus with 28 samples.

Results

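The 36 genes described here encode nuclear subunits of mitochondrial complex I, and their transcripts were followed along 3 brains that had been cut into consecutive fractions. They were chosen by symbol, through the accession printed beside each array probe, and make up 36 of the 20660 symbols that could be named on the array. The brains came from untreated male C57BL/6J mice aged 3 weeks, 1 mouse for each sectioning plane. There were 12 coronal, 6 horizontal and 10 sagittal fractions, and total RNA of each was hybridised to 1 array. Mouse and plane are therefore the same thing, and no position has a replicate. Per the labels a fraction held 100 sections of 5 micron, while the study's methods give another width at this age, and a position is therefore named by its fraction number only. Coronal fraction 12 also held the fraction after it, by its label.

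Complex I, the NADH:ubiquinone oxidoreductase, is the entry point of the respiratory chain. It takes electrons from NADH, passes them along iron-sulfur clusters to ubiquinone and pumps protons across the inner mitochondrial membrane. The catalytic core is conserved from bacteria, and the accessory subunits surround it and are needed for its assembly and stability. A part of the core is encoded by mitochondrial DNA, and all genes described here are nuclear. The members comprised 6 core subunits (Ndufs1, Ndufs3, Ndufs7, Ndufs8, Ndufv1 and Ndufv2), 14 accessory subunits of the Ndufa series with Ndufab1, 10 of the Ndufb series, 2 of the Ndufc series and 4 others (Ndufs4, Ndufs5, Ndufs6 and Ndufv3). Ndufa4 was first assigned to complex I and was later found in complex IV, and it is kept here because the list was taken by name.

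Promoters are shown for some members only. Ndufab1, Ndufa11 and Ndufb7 are among the genes named in the coronal results, where others are not shown. Ndufb4 had the most matches to motifs linked to nuclear genes of mitochondria. The sequences are from the RefSeq promoter windows of build GRCm38.p6, which matched 33 of the 36 members, all but Ndufa2, Ndufb9 and Ndufs1. Each line gives the 250 bases before the annotated start site, 5′ to 3′, with the letters named for each gene in capitals. Ndufab1, the member with the largest fitted coronal range, held none of the letters searched (chr7:122101849-122102098, minus strand). Ndufa11 held the full NRF1 palindrome (chr17:56717512-56717761, plus strand). Ndufb4 held 3 copies of the looser NRF1 motif, the palindrome with 1 base left free, and 1 of AAGGTCA (chr16:37654369-37654618, minus strand). Ndufb7 held CCGGAAG, the ETS letters, 20 bases before the start site (chr8:83566508-83566757, plus strand), and a match to TATAAA on the minus strand that is left in lower case.
Ndufab1: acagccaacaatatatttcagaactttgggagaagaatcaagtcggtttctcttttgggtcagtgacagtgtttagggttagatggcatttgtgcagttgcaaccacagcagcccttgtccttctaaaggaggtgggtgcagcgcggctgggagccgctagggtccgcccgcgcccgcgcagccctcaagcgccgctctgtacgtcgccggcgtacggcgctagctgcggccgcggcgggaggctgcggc
Ndufa11: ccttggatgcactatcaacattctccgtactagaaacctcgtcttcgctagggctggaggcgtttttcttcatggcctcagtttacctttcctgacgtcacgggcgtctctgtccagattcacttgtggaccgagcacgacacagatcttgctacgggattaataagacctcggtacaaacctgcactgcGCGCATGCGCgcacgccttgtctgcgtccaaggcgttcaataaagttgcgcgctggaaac
Ndufb4: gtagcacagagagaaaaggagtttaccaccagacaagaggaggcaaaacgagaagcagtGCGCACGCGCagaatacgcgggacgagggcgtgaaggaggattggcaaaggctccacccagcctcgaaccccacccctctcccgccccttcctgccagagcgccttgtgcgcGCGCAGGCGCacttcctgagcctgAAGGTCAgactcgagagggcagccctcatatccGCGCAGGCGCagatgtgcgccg
Ndufb7: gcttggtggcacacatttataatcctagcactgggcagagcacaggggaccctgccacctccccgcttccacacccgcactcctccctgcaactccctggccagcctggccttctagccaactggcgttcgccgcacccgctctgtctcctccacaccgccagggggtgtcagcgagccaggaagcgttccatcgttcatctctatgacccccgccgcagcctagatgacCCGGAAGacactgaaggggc

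The motifs were searched on both strands of the whole windows of 300 bases, 250 before and 50 after the start site. The looser NRF1 motif, which also covers the palindrome, was in 8 of 35 member windows (22.9%) and in 4.60% of all 32851 windows. AAGATGGC, the letters of the YY1 motif, was in 7 of 35 and in 2.75% of all. All 7 of these matches lay on the plus strand, 23 to 39 bases after the start site, and belonged to Ndufa3, Ndufa9, Ndufb8, Ndufc1, Ndufs4, Ndufs6 and Ndufs7. CCGGAAG was in 4 member windows (11.4%, against 8.86% of all), AAGGTCA, the core letters for estrogen-related receptors, in 3 (8.57% against 4.72%) and TATAAA in 5 (14.3% against 13.6%). A match describes letters and is no evidence that a factor binds there.

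Every member was measured in every fraction. The probes of all 36 were well above background on all 28 arrays and entered every test. The level of a probe is given as log2 of its processed signal minus the 75th percentile of its array, and for 35 of the 36 members the mean level was above 4. Between 24822 and 34240 of 55681 probes were well above background per array, and the 75th percentile signal ran from 135 in sagittal fraction 1 to 574 in coronal fraction 4. The arrays were not equally bright, and sagittal fractions 1 (135), 9 (176) and 10 (205) and horizontal fraction 6 (233) had the lowest 75th percentile. Most results are therefore also given after quantile normalization, which gives all arrays 1 distribution. Neuronal tissue was evident on every array, with 7 of 7 neuron markers well above background on all 28, while of 5 skeletal muscle markers Ckm and Mylpf were so on 0 arrays, Tnnt3 on 16, Myh4 on 19 and Acta1 on 28. The marker lists placed the hindbrain in coronal fraction 1, the olfactory bulb in coronal fraction 12, the cortex in horizontal fraction 1 and the hypothalamus in horizontal fraction 6.

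The difference between the highest and lowest of the 28 arrays was, for the members, 0.76 to 2.40 log2 under the 75th percentile, with a median of 1.33, against a median of 2.01 for all 32364 probes tested and of 1.52 for the probes with a mean level at or above that of the dimmest member, Ndufab1. After quantile normalization it was 0.47 to 1.34 with a median of 0.79, against 2.19 for all probes and 1.44 for those at or above the dimmest member. The median member then spanned 1.73-fold from its lowest to its highest fraction, and 29 of 36 spanned less than 1 log2. Ndufab1 had a mean level of -0.68, at the 50.8th percentile of the probes tested, while the other 35 members were above 4. Most probes at or above Ndufab1 were therefore dimmer than these 35, and no set as bright as the 35 was compared. Ndufv2, an iron-sulfur subunit of the NADH-oxidising module, had the smallest range under the 75th percentile. Its levels ran from 5.73 to 6.37 in the coronal series (median 5.99), from 5.74 to 6.18 in the horizontal series (median 5.87) and from 5.83 to 6.49 in the sagittal series (median 6.05). The 3 series overlapped, with coronal fraction 6 lowest and sagittal fraction 1 highest. After quantile normalization Ndufc1, a small subunit of the membrane arm, had the smallest range, 0.47.

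**Figure D1:**
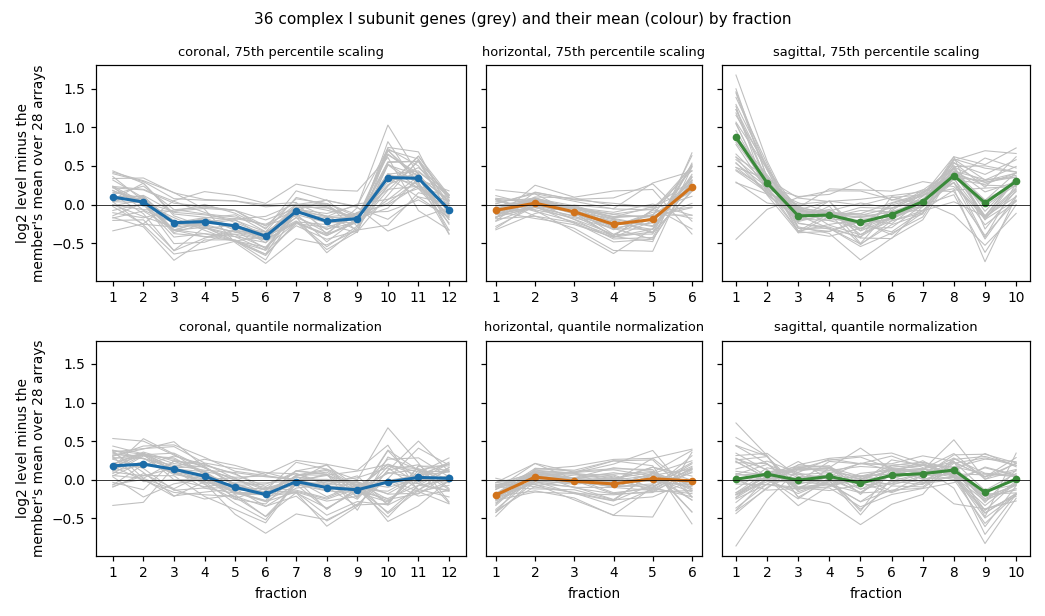
Level of each of the 36 members (grey lines) and their mean (coloured points and line) by fraction, in log2 and relative to the member's own mean over the 28 arrays. The upper row shows 75th percentile scaling and the lower row quantile normalization. In the upper row 35 members lay above their own series mean in sagittal fraction 1, 31 in coronal fraction 10 and 34 in coronal fraction 11, against 17, 17 and 19 in the lower row, where the coronal mean was highest in fractions 1 to 3.

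The mean over the members summarises this. Under the 75th percentile the coronal mean was lowest in fraction 6 (5.74) and highest in fraction 10 (6.50), with 6.49 in fraction 11. The horizontal mean ran from 5.90 in fraction 4 to 6.38 in fraction 6, and the sagittal mean from 5.92 in fraction 5 to 7.02 in fraction 1. The highest fractions were thus at an outer edge of the sagittal and horizontal series and near the rostral end of the coronal one. After quantile normalization the coronal mean was highest in fraction 2 (6.35), followed by fractions 1 (6.33) and 3 (6.28), and lowest in fraction 6 (5.96). The horizontal mean then lay between 5.95 (fraction 1) and 6.18 (fraction 2), and the sagittal mean between 5.99 (fraction 9) and 6.27 (fraction 8). The spread of the sagittal mean fell from 2.15-fold to 1.22-fold, and that of the coronal mean from 1.69-fold to 1.31-fold. With each array scaled to its median the sagittal mean spanned 3.59-fold, and the horizontal mean was highest in fraction 2 (9.93) and lowest in fraction 6 (9.18).

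The mean under the 75th percentile moved with the brightness of the array. Its Pearson correlation with log2 of the 75th percentile signal was -0.82 over the 28 arrays, and -0.93, -0.80 and -0.78 within the coronal, horizontal and sagittal series. Of the 36 members, 33 had a negative correlation, and 27 one below -0.5. After quantile normalization the correlation of the mean was 0.12 over the 28 arrays, and -0.12, 0.44 and 0.36 within the coronal, horizontal and sagittal series. These points share their scaling factor, so the correlations are descriptions. The part of array brightness in the 75th percentile results and that of position cannot be told apart in a design with 1 array per position.

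**Figure D2:**
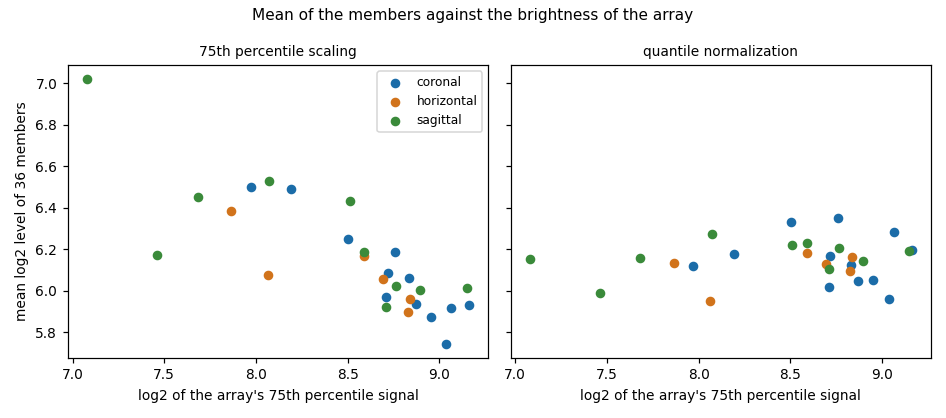
Mean log2 level of the 36 members on each of the 28 arrays against log2 of the array's 75th percentile signal, under 75th percentile scaling (left) and after quantile normalization (right); colours mark the series. The left panel falls from 7.02 on the dimmest array, and the right panel holds all arrays between 5.95 and 6.35.

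Along the coronal axis the count of members called depended on the scaling. A spline curve was fitted to each probe over the 12 fractions by limma, and a probe was called at a Benjamini-Hochberg adjusted p under 0.05. Of the 36 members 2 were called (5.56%), against 33.7% of all probes tested, and 15 had an unadjusted p under 0.05. The median fitted range, the highest minus the lowest point of the curve, was 0.60 log2 for the members and 0.90 for all probes. Both called genes were of the Ndufa series, so 0 of 6 core, 0 of 10 Ndufb, 0 of 2 Ndufc and 0 of 4 other subunits were called. After quantile normalization 8 of 36 were called (22.2%), against 34.2% of all probes. These were the core subunits Ndufs1, Ndufs7 and Ndufv1 and the accessory subunits Ndufa10, Ndufa11, Ndufab1, Ndufb7 and Ndufb8. Some settings gave shares nearer that of all probes, with 33.3% of members against 31.8% under array-median scaling, 33.3% against 39.3% with normexp background correction and 30.6% against 38.5% with 1 spline degree less. Others did not, with 5.56% against 31.2% without a filter on dim probes, 5.56% against 33.7% for the authors' log2 values and 11.1% against 33.7% for the mean of a gene's probes.

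Ndufab1, the dimmest member, was called under both scalings. It was read by 1 probe with a mean level of -0.68, while the other 35 members were above 4. Under the 75th percentile its correlation with log2 of the 75th percentile signal was -0.29, while 27 members were below -0.5. Ndufab1 encodes the mitochondrial acyl carrier protein, which sits in complex I and also serves mitochondrial fatty acid synthesis. Its coronal levels ran from -1.44 to -0.26, with a median of -0.84. Fraction 1, at the caudal end, was highest (-0.26), followed by fractions 2 (-0.37), 3 (-0.52) and 11 (-0.52), and fractions 5 to 9 lay between -1.44 and -1.01. The fitted range was 1.07 log2, or 2.10-fold, with a residual SD about the curve of 0.19 and an adjusted p of 0.00877 by limma. After quantile normalization the range was 1.07 with an adjusted p of 0.00572, and the levels ran from -1.38 (fraction 6) to -0.25 (fraction 1). The call held without any 1 of the 12 fractions under either scaling, with adjusted p up to 0.0251 and 0.0182. In the horizontal series its level was lowest in fraction 1 (-1.09 after quantile normalization) and highest in fraction 6 (-0.29), and under the 75th percentile its fitted range was 0.70 with an adjusted p of 0.104. In the sagittal series it stayed between -0.83 and -0.32, with a fitted range of 0.11, and after quantile normalization between -1.17 in fraction 9 and -0.34 in fraction 10, with a fitted range of 0.16.

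Ndufa13, also known as GRIM-19, was the other member called under the 75th percentile. Its coronal levels ran from 7.82 in fraction 6 to 8.99 in fraction 11, with a median of 8.14. The fitted range was 0.92 log2 ± 0.22 (residual SD) with an adjusted p of 0.0271 by limma, and it lost the call after quantile normalization (range 0.53, adjusted p 0.0893). The next largest ranges belonged to Ndufa2 (0.92, adjusted p 0.0761), Ndufb7 (0.84, adjusted p 0.0582) and Ndufa7 (0.82, adjusted p 0.11), accessory subunits that were not called. All but Ndufab1 among these 5 were highest at fraction 12 on the fitted curve. Coronal fraction 12 bore on the count: without it 17 of 36 members were called (47.2%), against 32.8% of all probes.

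Ndufs7, the subunit that carries the last iron-sulfur cluster before ubiquinone, had the second largest fitted coronal range after quantile normalization. Its quantile levels were highest in fractions 1 (7.30) and 2 (7.27) and lowest in fraction 10 (6.28), with a median of 6.73. The fitted range was 0.85 log2 with an adjusted p of 0.00983, and the call held without any 1 fraction (adjusted p up to 0.0344). Ndufv1, which holds the flavin that takes electrons from NADH, ran from 6.22 to 7.11 with its highest level in fraction 3 (fitted range 0.62, adjusted p 0.0243). Ndufs1, the large iron-sulfur subunit of the same module, ran from 4.83 in fraction 10 to 5.80 in fraction 3 (fitted range 0.61, adjusted p 0.0363). Both were lowest in fraction 10 and highest in fraction 3. Ndufb7, a membrane-arm subunit on the intermembrane side, had a fitted range of 0.68 (adjusted p 0.0246) and was highest at fraction 1 on its curve. Ndufa11, a membrane-arm subunit, had 0.72 (adjusted p 0.0422), with its curve highest at fraction 12. Ndufb8 and Ndufa10 had 0.56 (adjusted p 0.0463) and 0.54 (adjusted p 0.0432), both highest at fraction 1. Without 1 fraction at a time Ndufb7 and Ndufv1 kept the call in 9 of 12 fits, Ndufa11 and Ndufs1 in 3, Ndufb8 in 2 and Ndufa10 in 0.

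The end at which the curves were highest depended on the scaling. Under the 75th percentile 14 of 36 fitted curves were highest at fraction 1 and 13 at fraction 12. After quantile normalization 24 of 36 fitted curves were highest at fraction 1, and fractions 1 and 2 were each above the member's own coronal mean for 32 of 36. The mean of the astrocyte markers then went from 2.85 in fraction 9 to 4.27 in fraction 1, and 4 of 5 were called, against 34.2% of all probes. The correlation of this mean with the members' mean over the 12 fractions was 0.87. Other lists that moved with the members were those of the cerebellum (0.81), hindbrain (0.81), endothelium (0.73) and blood (0.65), and lists that moved against them were those of the cortex (-0.90), striatum (-0.66), microglia (-0.65), skeletal muscle (-0.61) and hypothalamus (-0.52), while the neuron list had 0.05. Under the 75th percentile the correlations were 0.22 for astrocytes, -0.02 for the cerebellum, 0.20 for the hindbrain, -0.27 for the cortex and -0.63 for neurons. Under this scaling blood had 0.69, the olfactory bulb 0.60 and microglia 0.40, while the thalamus had -0.46 and choroid plexus -0.42. The part of cell composition in the members' pattern was not tested, and in pooled tissue fewer cells and less RNA per cell cannot be told apart.

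Every coronal call of a member was lost with the slide as a term and among the fractions of 1 slide. Coronal fractions 1 and 2, 3 to 10, and 11 and 12 lay on separate slides. With the slide as a term 0 of 36 members were called by limma (0 at an unadjusted p under 0.05), against 0.745% of all probes. Among fractions 3 to 10 alone, which shared 1 slide, it was also 0 (8 at an unadjusted p under 0.05), against 12.9% of all probes. The members' median fitted range was 0.63 log2 with the slide term and 0.63 among fractions 3 to 10, against 0.60 without either. After quantile normalization it was 0.48 with the slide term and 0.41 among fractions 3 to 10, against 0.45. Ndufab1 had, among fractions 3 to 10, a range of 0.83 with an adjusted p of 0.086, and Ndufs7 0.74 after quantile normalization with an adjusted p of 0.119. The ends of the coronal axis and their slides cannot be told apart.

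**Figure D3:**
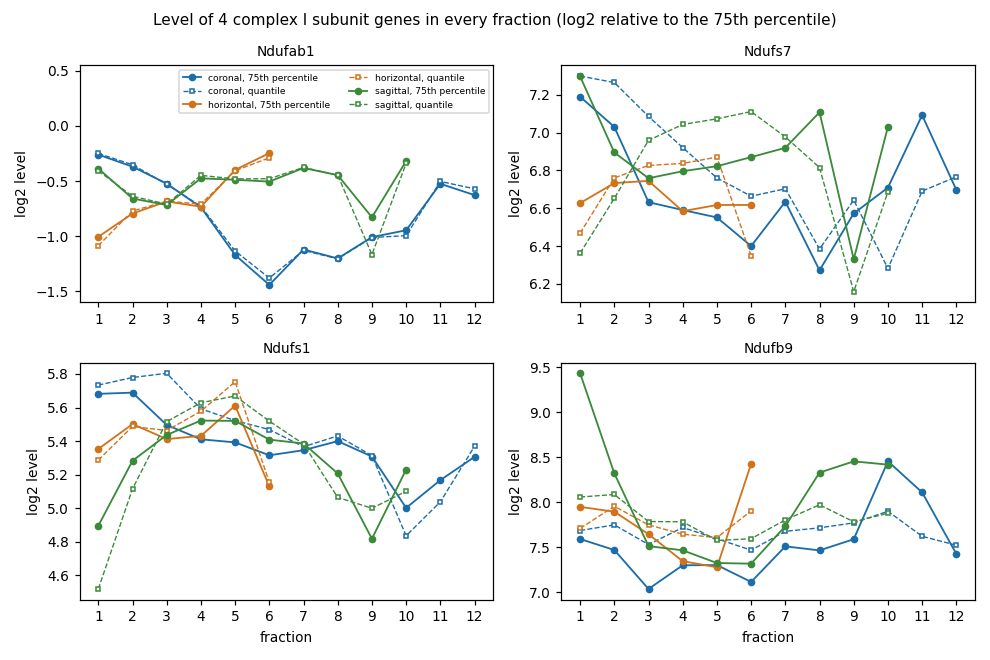
Log2 level, relative to the array's 75th percentile, of Ndufab1, Ndufs7, Ndufs1 and Ndufb9 in every fraction of the coronal, horizontal and sagittal series, under 75th percentile scaling (filled, solid) and after quantile normalization (open, dashed). Ndufab1 went from -0.26 in coronal fraction 1 to -1.44 in fraction 6 under the 75th percentile and from -0.25 to -1.38 after quantile normalization, while Ndufb9 in sagittal fraction 1 moved from 9.43 to 8.06 with the scaling.

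Along the horizontal axis 0 of 36 members were called by limma, against 15.8% of all probes, with 3 members at an unadjusted p under 0.05. With 6 arrays, a count of 0 does not show that levels were even. After quantile normalization it was again 0, against 21.2%, with 2 at an unadjusted p under 0.05. The median fitted range of the members was 0.39 log2, against 0.74 for all probes. Ndufa4 had the largest, 0.87 ± 0.22 (residual SD, adjusted p 0.113). Its levels ran from 5.63 in fraction 4 to 6.76 in fraction 6, the most ventral one, with a median of 6.08. Ndufb2 (0.77, adjusted p 0.289), Ndufa6 (0.77, adjusted p 0.105), Ndufb9 (0.74, adjusted p 0.263) and Ndufa2 (0.72, adjusted p 0.266) followed, all with their curves highest in fraction 6. Fraction 6 was the highest of the 6 fractions for 28 of 36 members under the 75th percentile, and for 15 after quantile normalization. Under array-median scaling the curves of the 5 members named here ran the other way, and 7 of 36 members were called, against 59.8% of all probes.

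Along the sagittal axis 14 of 36 members were called (38.9%) under the 75th percentile, against 14.7% of all probes. By group these were 7 of 14 Ndufa, 6 of 10 Ndufb and 1 of 2 Ndufc subunits, with 0 of 6 core and 0 of 4 other subunits. The median fitted range was 1.08 log2, against 1.06 for all probes. With normexp background correction the share was 38.9% against 44.2% of all probes, and without a filter on dim probes 41.7% against 34.5%. After quantile normalization 1 of 36 was called (2.78%), against 8.13% of all probes, and the median fitted range of the members was 0.40 against 1.08 for all.

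Ndufb9, a membrane-arm subunit of the LYR family, had the largest sagittal range. Its levels ran from 7.32 to 9.43 with a median of 8.03. Fraction 1 was highest, fractions 2, 8, 9 and 10 lay between 8.32 and 8.45, and fractions 5 and 6, in the middle of the series, were lowest at 7.32 each. The fitted range was 2.12 log2, or 4.33-fold, with a residual SD of 0.24 and an adjusted p of 0.00972. After quantile normalization its levels ran from 7.57 to 8.08 and the fitted range was 0.46. The next ranges were those of Ndufb2 (1.91, adjusted p 0.0114), Ndufa2 (1.90, adjusted p 0.012), Ndufb4 (1.89, adjusted p 0.0121) and Ndufa7 (1.78, adjusted p 0.019). Of the 36 members, 34 were highest in sagittal fraction 1 under the 75th percentile and 6 after quantile normalization. Marker lists differed there too: under the 75th percentile the neuron list (5.90, against a median of 6.38) and the myelin list (3.08, against 6.48) were lowest in fraction 1, and the microglia list (3.85, against 3.09) was highest. The correlation with the members' mean over the 10 fractions was 0.88 for microglia, 0.78 for blood, -0.79 for myelin, -0.80 for choroid plexus and -0.83 for neurons, and after quantile normalization 0.42, 0.52, 0.28, 0.22 and 0.06, with 0.96 for endothelium. Under the 75th percentile the correlation was also -0.78 for the cerebellum, -0.69 for the hindbrain, -0.66 for the thalamus and 0.64 for endothelium. After quantile normalization cerebellum, hindbrain and thalamus had 0.34, 0.27 and 0.26. The part of cell composition in the sagittal pattern was not tested.

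The sagittal calls rested on single fractions. Without fraction 1, the dimmest array, limma called 0 of 36 members (11 at an unadjusted p under 0.05), against 0% of all probes, and the members' median fitted range was 0.58 log2, against 0.80 for all probes. Without 1 of fractions 2 to 7 it called 4 to 7 members (6.24% to 9.27% of all probes), and without fraction 8 it called 12 (12.2%). Across these fits the members' median fitted range was 1.06 to 1.18 log2, against 1.08 with all fractions. Without fraction 9 it called 26 (38.8% of all probes), and without fraction 10 it called 25 (47.1% of all). With the slide as a term it was 6, against 7.79% of all probes, while the members' median fitted range was 1.03 log2, against 1.08 without it, and among fractions 5 to 10, on 1 slide, 0 of 36 (1 at an unadjusted p under 0.05), against 0% of all.

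After quantile normalization the member called was Ndufs1. Its quantile levels were lowest in fraction 1 (4.52) and highest in fraction 5 (5.67), with a median of 5.25. The fitted range was 1.16 log2 ± 0.17 (residual SD) with an adjusted p of 0.0367, and the call held in 2 of 10 fits without 1 fraction. Without fraction 9 or fraction 10 the count after quantile normalization was 5 of 36 each (13.9%), against 37.1% and 48.7% of all probes. Ndufb2 had 1.07 (adjusted p 0.0619) and Ndufs8, an iron-sulfur subunit, 1.04 (adjusted p 0.147). Their curves were highest at fraction 1, where that of Ndufs1 was lowest.

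**Figure D4:**
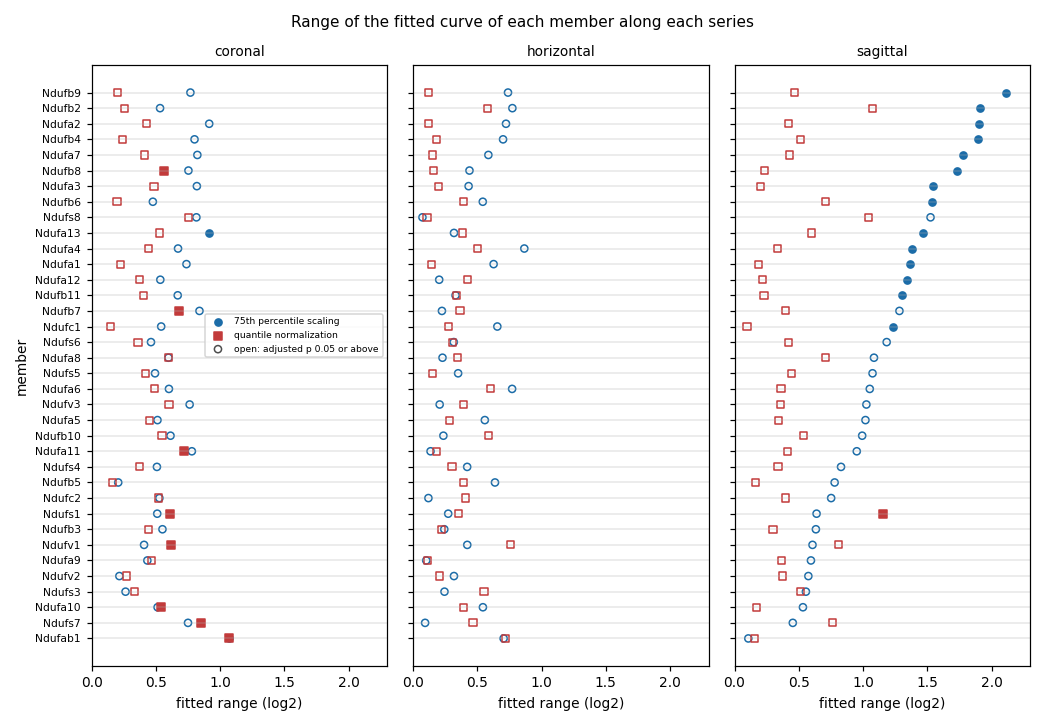
Highest minus lowest point of the fitted curve (log2) of each member in the 3 series, under 75th percentile scaling (circles) and after quantile normalization (squares); filled symbols mark an adjusted p under 0.05 by limma. Under the 75th percentile 2, 0 and 14 members were called in the coronal, horizontal and sagittal series, and after quantile normalization 8, 0 and 1.

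Sagittal fractions were also compared in mirror pairs about the middle of the series. The labels do not place the midline, so the pairs need not be equidistant from it. The members' median absolute difference between mirror fractions was 0.59 log2 for fractions 1 and 10 under the 75th percentile and 0.13 after quantile normalization. For fractions 5 and 6 it was 0.11 and 0.12, and for fractions 2 and 9 it was 0.20 and 0.23. For fractions 3 and 8 it was 0.50 and 0.19, with 35 and 24 of 36 members higher in fraction 8, and for fractions 4 and 7 it was 0.18 and 0.06, with 34 and 20 of 36 higher in fraction 7. For fractions 2 and 9, 9 and 5 of 36 were higher in fraction 9. Fraction 10 was above fraction 1 for 2 of 36 members under the 75th percentile and for 18 after quantile normalization. All probes tested gave 0.50 and 0.47 for fractions 1 and 10, 0.67 and 0.76 for fractions 2 and 9 and 0.39 and 0.37 for fractions 3 and 8. With the mirror pair as a block, limma called 0 of 36 members between fractions 6 to 10 and 1 to 5, against 0% of all probes, with 0 members at an unadjusted p under 0.05. The differences of the members, fractions 6 to 10 against 1 to 5, lay between -0.25 and 0.17. With array-median scaling they lay between -0.60 and -0.18, with a median of -0.36 against -0.41 for all probes.

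The series were compared over all 28 fractions by limma, which treats fractions of 1 mouse as units, so that the p-values describe these 3 brains. Horizontal minus coronal called 0 of 36 members, against 3.47% of all probes, with 0 at an unadjusted p under 0.05. Its largest differences were -0.27 ± 0.23 (SE, adjusted p 0.675) for Ndufb2, 0.23 ± 0.26 (adjusted p 0.773) for Ndufb9 and -0.20 ± 0.15 (adjusted p 0.596) for Ndufa8. Horizontal minus coronal was positive for 20 of 36 members with a median of 0.016, and with the slide as a term for 7 of 36 with a median of -0.12. After quantile normalization with the slide term it was positive for 4 of 36 with a median of -0.23, and 8 had an unadjusted p under 0.05 by limma. The horizontal series shared its slide with coronal fractions 1 and 2 only. With the slide term it is therefore set against these caudal fractions and not against the whole coronal series, so slide and position are not separated. Sagittal minus coronal also called 0, against 0.139%, with 7 at an unadjusted p under 0.05. It was largest for Ndufb9 at 0.50 ± 0.22 (adjusted p 0.349), Ndufa2 at 0.42 ± 0.21 (adjusted p 0.406) and Ndufb8 at 0.41 ± 0.18 (adjusted p 0.344). The difference was positive for 33 of 36 members with a median of 0.22, and after quantile normalization for 18 of 36 with a median of -0.00068. With the slide as a term, and within the slide that both series shared, it was positive for 13 of 36 with a median of -0.062. That slide held coronal fractions 11 and 12 and sagittal fractions 5 to 10, so only these were compared. Sagittal minus horizontal called 0, against 0.0154%, with 0 at an unadjusted p under 0.05. Ndufa7 (0.35 ± 0.24, adjusted p 0.911), Ndufa4 (0.34 ± 0.21, adjusted p 0.883) and Ndufc1 (0.31 ± 0.18, adjusted p 0.839) had its largest differences.

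The members moved together under the 75th percentile and less so after quantile normalization. Over the 28 arrays the mean correlation of the 630 pairs of members was 0.63, and 588 pairs were above 0. After quantile normalization it was 0.24, with 430 above 0. By series it was then 0.34 (coronal), 0.26 (horizontal) and 0.13 (sagittal). The correlation of a member with the mean of the other 35 had a median of 0.90 under the 75th percentile and of 0.49 after quantile normalization. The median correlation of 12259 other symbols with the members' mean was -0.0099 and 0.18. After quantile normalization Ndufb8 had the highest (0.82) and Ndufa8, a membrane-arm subunit, the lowest (-0.34).

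After quantile normalization the members differed in how they moved with array brightness. The correlation with log2 of the 75th percentile signal ran from -0.76 to 0.84 with a median of 0.13, and was above 0.5 for 11 members and below -0.5 for 11. The first 11 held 5 of the 6 core subunits, Ndufs1 (0.84), Ndufs3 (0.84), Ndufv1 (0.81), Ndufs7 (0.63) and Ndufv2 (0.57), and the zinc-binding subunit Ndufs6 (0.68). The other 11 held the remaining core subunit Ndufs8 (-0.64), together with Ndufa2 (-0.76), Ndufa6 (-0.67), Ndufa7 (-0.67), Ndufb6 (-0.66), Ndufs4 (-0.62) and Ndufb2 (-0.56). On the dim arrays of sagittal fraction 1 and coronal fraction 10, Ndufs1 was low (4.52 and 4.83) and Ndufb2 high (6.01 and 6.13), against medians of 5.45 and 5.44 over the 28. The 6 core subunits had coronal ranges of 0.40 to 1.25 log2 under the 75th percentile, of which Ndufs8 was the widest, from 3.72 in fraction 8 to 4.97 in fraction 11.

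**Figure D5:**
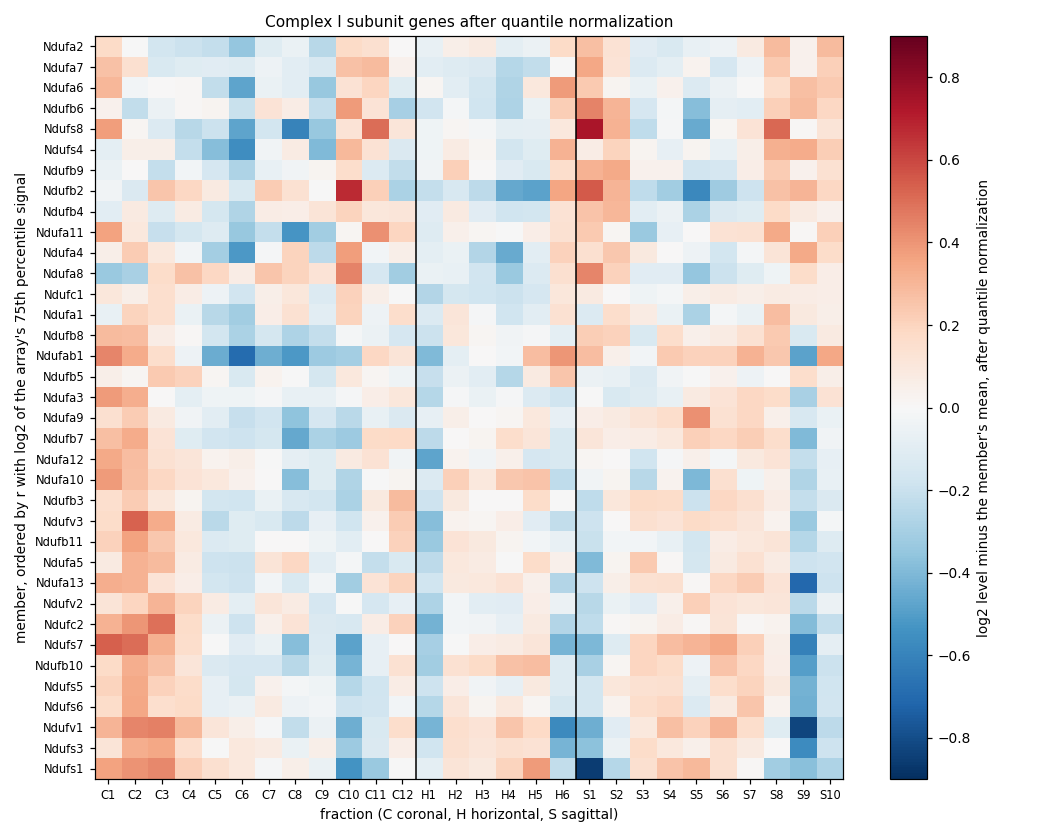
Log2 level of each member in each fraction after quantile normalization, relative to the member's mean over the 28 arrays (colour scale from -0.9 to 0.9). Members are ordered by their correlation with log2 of the array's 75th percentile signal, from Ndufa2 (-0.76) at the top to Ndufs1 (0.84) at the bottom, and the lower rows are low in sagittal fractions 1 and 9, coronal fraction 10 and horizontal fraction 6.

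For 6 members the array held a second probe. Its correlation with the probe used was 0.81 to 0.98 for Ndufa5, Ndufb4, Ndufb5, Ndufb6 and Ndufb11 under the 75th percentile and 0.22 for Ndufv3. After quantile normalization it was 0.88 for Ndufb4, 0.87 for Ndufb6, 0.86 for Ndufv3, 0.37 for Ndufb5, 0.25 for Ndufb11 and 0.11 for Ndufa5. The second probes were dimmer, by 8.12 log2 for Ndufb11, 6.59 for Ndufv3, 2.24 for Ndufb5, 1.93 for Ndufa5, 0.94 for Ndufb4 and 0.11 for Ndufb6.

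Other complexes of the chain were set beside the members. Complex III, which takes electrons from ubiquinol, followed the members' mean most closely, with correlations over the 28 arrays of 0.99 under the 75th percentile and 0.92 after quantile normalization. Complex V, the ATP synthase, had 0.99 and 0.73, complex IV, cytochrome c oxidase, 0.93 and 0.36, complex II, succinate dehydrogenase, 0.59 and 0.65, and the cytosolic ribosome 0.93 and 0.10. In the coronal series after quantile normalization 2 of 9 complex III genes, 1 of 10 complex IV genes, 0 of 15 complex V genes and 2 of 4 complex II genes were called, against 34.2% of all probes. Cyc1, cytochrome c1, had a fitted range of 0.95 (adjusted p 0.00308) and Sdhc, a membrane anchor of complex II, 0.88 (adjusted p 0.00652). In the sagittal series under the 75th percentile 0 of 4 complex II, 4 of 9 complex III, 9 of 10 complex IV, 6 of 15 complex V and 18 of 20 ribosomal genes were called, against 14.7% of all probes. The counts for complex IV and the ribosome were 0 and 3 after quantile normalization, against 8.13%.

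Of the genes that build or control complex I, 15 of 16 assembly factors had a named probe, and 4 were called in the coronal series after quantile normalization: Ndufaf2 (fitted range 0.63, adjusted p 0.0475), Ndufaf4 (0.62, adjusted p 0.0493), Ndufaf8 (1.29, adjusted p 0.0231) and Nubpl (0.63, adjusted p 0.0453). Among 12 regulators of mitochondrial genes 4 were called there, and both counts stand against 34.2% of all probes. The regulators called were Esrrg (1.53, adjusted p 0.00267), Ppargc1a (1.09, adjusted p 0.0306), Ppargc1b (1.09, adjusted p 0.0297) and Polrmt (0.56, adjusted p 0.0422). Esrrg and Ppargc1a encode a nuclear receptor and a coactivator of oxidative metabolism. Nrf1 (0.58, adjusted p 0.0714), Yy1 (0.43, adjusted p 0.28) and Gabpa (0.49, adjusted p 0.427) were not called.

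The genes most like the members' mean were sought among 12259 other symbols well above background on all 28 arrays, by Pearson correlation over the 28 fractions after quantile normalization. The 10 closest were Ly6g6d (0.89), Alkbh7 (0.88), Uqcrh (0.88), Higd1a (0.85), Faap20 (0.83), Hsd3b7 (0.83), Dap (0.83), Antkmt (0.82), Thoc6 (0.82) and S100b (0.82). Uqcrh, a hinge subunit of complex III, and Higd1a, a protein of the inner mitochondrial membrane, also had correlations of 0.97 and 0.96 under the 75th percentile, while Ly6g6d had 0.19. A correlation above 0.85 was reached by 4 symbols after quantile normalization and by 435 under the 75th percentile.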

How the data were processed

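Total RNA of 28 brain fractions was labelled with Cy3 and hybridised to 1-colour Agilent arrays. The authors deposited scanner intensity values from Feature Extraction 10.5.1.1, already background-subtracted, and a table of log2 values for 44721 probes. By comparison with the arrays, the authors' log2 values are the processed signal less the 75th percentile of each array, with a small shift per array. Here outlier spots were left out, spots of a probe averaged, and the same scaling applied. The 32364 probes tested were well above background (at least 0.5 of their spots) in at least 1 fraction of each series and had no missing value. Accessions were matched to RefSeq symbols (GRCm38.p6), and the probe with the highest mean stood for a gene. A natural cubic spline over fractions (3, 2 and 3 degrees of freedom for the coronal, horizontal and sagittal series) was tested by the limma F-test, and the series means by limma contrasts, with Benjamini-Hochberg adjustment over all probes (R 4.3.3, limma 3.58.1). The error is the residual around the curve of 1 brain. The fits were tested on simulated data, where trends of the size seen in most members were rarely called. The simulation gave a trend to few probes, all of them linear, and used the coronal residual SD in every series. Its rates therefore need not hold for these data, where a larger share of probes was called.

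The members and lists were chosen with earlier results of these data known. Named with values in all fractions were the members of largest fitted range per series and of smallest range over the 28 arrays, with fitted range and p the 5 largest per series and the 3 largest differences per contrast, and every second probe. Members called after quantile normalization and the second promoter set were named after their values were seen. Alternatives were array-median scaling, quantile normalization, normexp with an offset of 50, no filter on dim probes, the mean of a gene's probes, the deposited log2 values, the slide as a term or random block, 1 spline degree less, single slides, each fraction left out and the fraction number as a block. The normexp alternative used the median foreground, since the files hold no mean. Fraction numbers do not pair the series: the correlation of deviations between same-numbered fractions ran from -0.44 to 0.61 over 22 pairs. The number of arrays limits the precision.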

Additional observations from a re-analysis of the deposited data

Results flagged for a closer look

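Among the horizontal and sagittal fractions, the gap between the most extreme fraction and its nearest neighbour was compared with the whole range of the series for the mean of the members and for each named member, in 30 sets of values under 75th percentile scaling. Chance flags about 1 in 20 sets of unselected values. Here 5 stood out, all of them sagittal fraction 1 above the other 9 fractions. They come from 1 array, and several of the members were named for a large sagittal range or difference, which this fraction raises, so the chance share does not apply to them. Ndufb7 had 8.08 there against 7.36 in the next highest fraction, a gap of 0.536 of its range. Ndufc1 had 7.51 against 6.87, a gap of 0.512. Ndufa13 had 9.60 against 8.84, a gap of 0.49. Ndufb8 had 8.83 against 7.96, a gap of 0.478. Ndufa7 had 8.30 against 7.43, a gap of 0.471. This array had the lowest 75th percentile signal of the 28, 135, and after quantile normalization the mean of the members there was 6.15, within the sagittal range of 5.99 to 6.27. The part of array brightness in these gaps was not tested.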

How the results depend on the processing

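The count of coronal members called was 2. It was 12 with array-median scaling (31.8% of all probes), 8 after quantile normalization (34.2%), 12 with normexp (39.3%), 4 with the mean of a gene's probes (33.7%) and 11 with 1 spline degree less (38.5%). It was 0 with the slide as a term (0.745%) and with fractions 3 to 10 alone (12.9%). After quantile normalization both were again 0 (1.13% and 13.7%). Leaving out 1 fraction gave 1 to 17, the highest without fraction 12 (32.8% of all probes). Over these fits the share of all probes ran from 24.5% (without fraction 11) to 34.4% (without fraction 10). The horizontal count of 0 became 7 with array-median scaling (59.8% of all probes). It stayed 0 without each fraction, against 0% (without fraction 3 or 4) to 17.8% (without fraction 5) of all probes. The sagittal count of 14 became 0 with array-median scaling (1.04% of all probes), 1 after quantile normalization (8.13%), 6 with the slide as a term (7.79%), 7 with 1 spline degree less (12.7%) and 0 with fractions 5 to 10 alone. After quantile normalization it was 0 with the slide as a term or fractions 5 to 10 alone. Leaving out 1 fraction gave 0 (without fraction 1, 0% of all probes) to 26 (without fraction 9, 38.8%). After quantile normalization, leaving out 1 fraction gave 2 to 8 coronal members (25.0% to 34.9% of all probes) and 0 to 5 sagittal members (0% to 48.7%). The fits that joined quantile normalization with a slide or a left-out fraction were chosen after seeing the data. Horizontal minus coronal called 1 member, Ndufb2 (lower in the horizontal series), with array-median scaling (7.91% of all probes), and 0 in the other settings. Sagittal minus coronal, sagittal minus horizontal and the sides called 0 in every setting run. With the fraction number as a replicate block, each of the 3 contrasts called 0 members, against 4.27%, 1.16% and 0.0062% of all probes. Their median differences were 0.13, 0.25 and 0.14. In the same order 0, 19 and 2 members had an unadjusted p under 0.05 by limma, against 0, 7 and 0 without the block. Fraction numbers do not pair the series, so this block joins unlike positions and no conclusion is drawn from it. Over the 549 alternative values of the named members, 480 kept direction and call, 43 lost the call, 11 gained it and 15 turned. With array-median scaling the horizontal curves of Ndufa4 (range 0.18), Ndufb2 (0.27), Ndufa6 (0.28), Ndufb9 (0.31) and Ndufa2 (0.32) ran the other way, and horizontal minus coronal was -0.19 for Ndufb9. After quantile normalization the coronal curve of Ndufa13 turned among fractions 3 to 10 (0.44) and with the slide term (0.67), and that of Ndufb7 among fractions 3 to 10 (0.40). With the slide as a term, and within the shared slide, horizontal minus coronal was 0.15 for Ndufa8 (0.21 after quantile normalization with the slide term) and sagittal minus coronal -0.023 for Ndufa2. Sagittal minus horizontal was -0.013 for Ndufa7 with the slide term. With the slide term, horizontal minus coronal used coronal fractions 1 and 2 alone. Sagittal minus coronal used coronal fractions 11 and 12 and sagittal fractions 5 to 10, and sagittal minus horizontal joined both. The slide-term contrasts therefore compare other fractions than the main ones. The cause of the other changes was not tested. With array-median scaling the median difference of all probes was -0.39 (horizontal minus coronal), -0.15 (sagittal minus coronal) and 0.24 (sagittal minus horizontal). In the same order it was 0.020, 0.032 and 0.0059 under percentile scaling. With 1 array per position, limma had few residual degrees of freedom, and the coronal count turned on fraction 12 while the sagittal count moved by over 1.5 times without any 1 fraction except fraction 8.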
